A study of Mus musculus with 12 samples.

Results

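The genes described here are 9 genes of the inflammasome and gasdermin pathway. They are the sensors Nlrp3, Nlrc4, Aim2 and Mefv, the adaptor Pycard, the caspases Casp1 and Casp4, the pore-forming Gsdmd and the cytokine gene Il18. They were taken by symbol from the 55335 genes of the count tables. All 9 were present, and all 9 passed the filter on low counts in each of 3 comparisons. The study sequenced total RNA, after removal of ribosomal RNA, from neutrophils of tumors and bone marrow (BM), in 12 libraries. It compared tumor-associated neutrophils (TANs) of mice with and without the chemokine receptor Cxcr2, and the BM libraries serve as the reference for both. PyMT TANs came from mammary tumors of FVB mice that carry the polyoma middle T oncogene, whose expression is driven in the mammary epithelium. PyMT-Cxcr2-/- TANs came from FVB mice with the same transgene and an inactivated Cxcr2, which these mice lack in every cell type. WT BM neutrophils came from FVB mice without the transgene and with Cxcr2. Each group had 4 libraries, and all mice were 10 weeks old and housed in the same class of pathogen-free facility. TANs and BM neutrophils thus differ in tissue and in the transgene, and the paper takes the BM neutrophils as immature. They also differ in how the cells were freed, since tumors were minced and digested with a dissociation kit and marrow was centrifuged from the bones. PyMT-Cxcr2-/- TANs differ from WT BM neutrophils in Cxcr2 as well. These differences cannot be told apart. After enrichment on CD11b, the neutrophils were sorted as CD45+ CD11b+ Ly6G+ F4/80- cells. The labels list the libraries of a group as separate samples without saying that each is 1 animal, so p-values measure the spread between these libraries.

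An inflammasome is a protein complex that a sensor builds in the cytosol when it detects a microbe or damage. The sensor recruits the adaptor ASC, encoded by Pycard, which gathers caspase-1, and caspase-1 then cuts pro-interleukin-1β and pro-interleukin-18 to their active forms and opens gasdermin D, whose fragments form pores in the membrane. Caspase-11, encoded by Casp4 in the mouse, detects intracellular lipopolysaccharide and cuts gasdermin D without this complex. Neutrophils are known to use the pathway to release interleukin-1β and, in some settings, to expel their DNA. Cutting takes place on the protein, so the RNA levels given here do not measure activation.

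The count on genes was between 25032704 and 51351569 per library. Levels are in CPM, the count scaled to the library total and by TMM factors (trimmed mean of M values), and the smallest level taken as detectable, 3 counts, equals 0.0565 to 0.102 CPM depending on the library. Such floors cover counting error only. Cxcr2 ranged from 1043 to 1523 CPM in the PyMT TAN libraries, from 8.82 to 10.0 CPM in those of PyMT-Cxcr2-/- TANs, and from 1824 to 2253 CPM in BM, which matches the labels. PyMT TAN replicate 3 was the shallowest library, lay farthest from its group and held 111.6 CPM of the 4 hemoglobin genes, against at most 2.04 CPM in the other PyMT TAN libraries. The neutrophil marker Csf3r was between 2975 and 5374 CPM in all 12 libraries, while Ly6g was lower in the TANs (20.3 to 180.3 CPM) than in BM (474 to 656 CPM). Of the 8 neutrophil markers, 7 were called lower than in BM in each type of TANs. The 8 include Cxcr2, whose low level in PyMT-Cxcr2-/- TANs follows from the genotype. The 8 summed to 10093 to 15669 CPM in PyMT TANs, to 16690 to 27134.5 CPM in PyMT-Cxcr2-/- TANs and to 72592 to 95032 CPM in BM. All 10 macrophage markers were called higher in both types of TANs than in BM. Their summed level ranged from 2149 to 5163 CPM in PyMT TANs, from 2332 to 4831 CPM in PyMT-Cxcr2-/- TANs, and from 262 to 362 CPM in BM, although F4/80+ cells had been gated out. The 8 mammary epithelial markers summed to 47.2 to 443 CPM in PyMT TANs, to 80.6 to 310.3 CPM in PyMT-Cxcr2-/- TANs and to at most 0.516 CPM in BM. The 5 lymphocyte markers summed to at most 19.4 CPM in any library.

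In TANs, 7 of the 9 genes were higher than in BM neutrophils, and Gsdmd and Casp1 were at a lower level. A gene was called when edgeR's quasi-likelihood test gave a Benjamini-Hochberg adjusted p under 0.05 over all genes tested and the fold change was at least 1.5. In PyMT TANs, 7 genes were called higher and 2 lower than in WT BM neutrophils, where 30.1% of all genes tested were called higher and 23.2% lower. In PyMT-Cxcr2-/- TANs, 7 were called higher and 1 lower, beside 34.4% and 25.1% of all genes tested. The median log2 fold change of the 9 genes was 1.93 in PyMT TANs and 1.42 in PyMT-Cxcr2-/- TANs, beside 0.087 and 0.086 over all genes tested. All 9 genes had TAN libraries that did not overlap with BM, the same 7 above and 2 below, beside 28.7% of all genes tested above and 29.6% below in PyMT TANs, and 32.2% and 33.8% in PyMT-Cxcr2-/- TANs. Both comparisons use the same BM libraries. Between the TANs, 0 of the 9 genes were called in either direction, where 1.38% of all genes tested were called higher and 0.596% lower in the absence of Cxcr2. In these bulk samples, fewer cells of a type and less RNA per cell cannot be told apart.

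**Figure D1:**
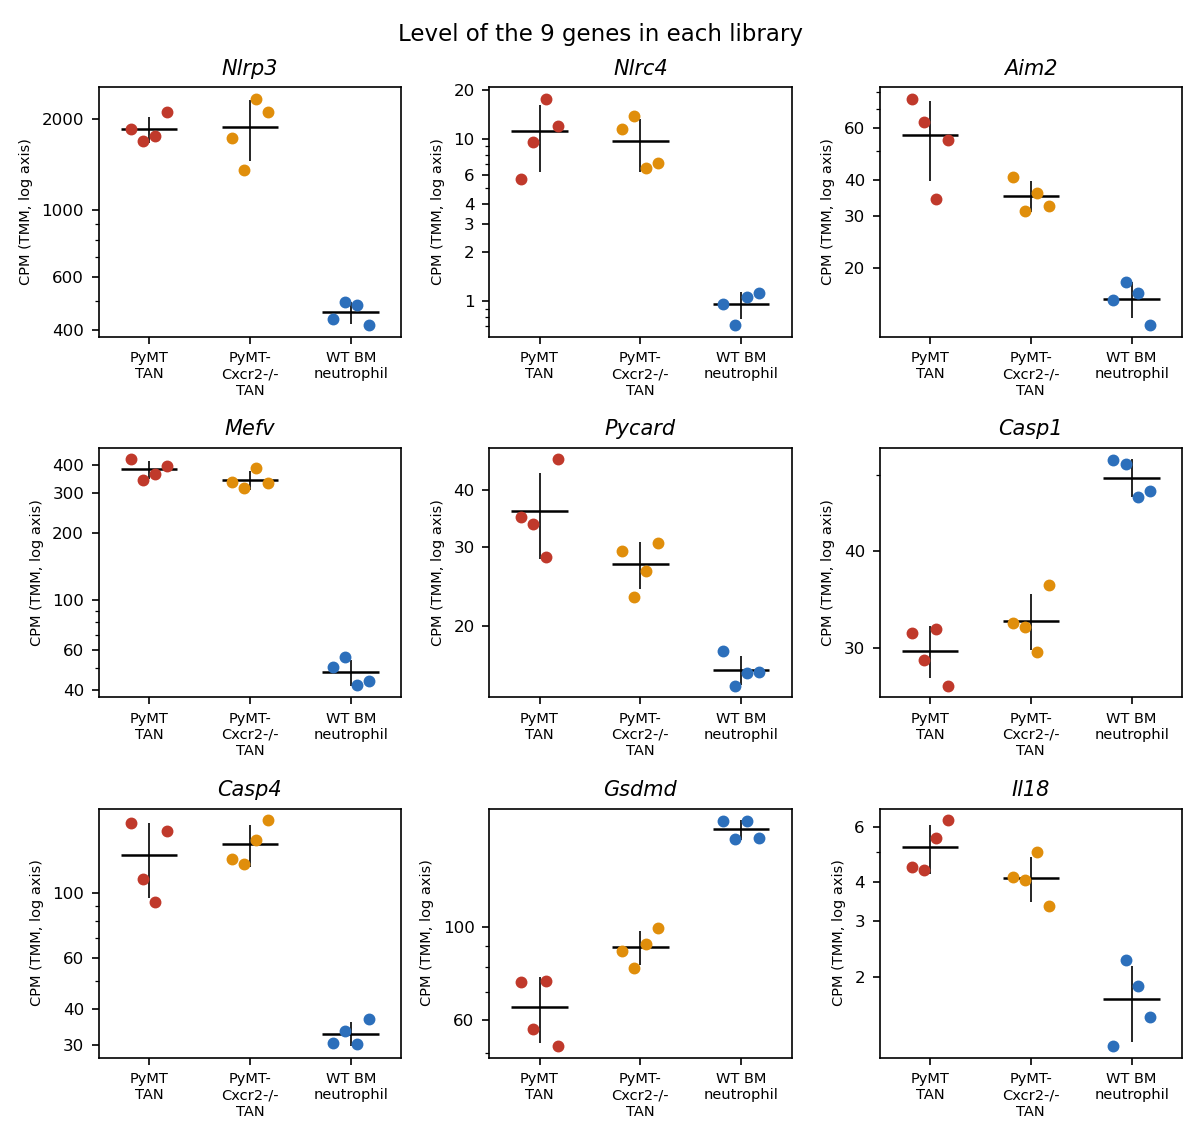
Level of each of the 9 genes in CPM (TMM-scaled, log axis) by group, with 1 point per library in replicate order from left to right, a horizontal bar at the mean and a vertical bar for the SD (n = 4). In 7 genes all TAN points lie above the BM points, while in Casp1 and Gsdmd all BM points lie above the TAN points, and only Gsdmd separates the PyMT TAN from the PyMT-Cxcr2-/- TAN points.

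Nlrp3 (ENSMUSG00000032691; GRCm38, GENCODE M21 annotation, chr11:59541568-59566956, plus strand) senses ion loss and damage and is the sensor most tied to interleukin-1β release. In replicates 1 to 4 it was at 1855, 1692, 1761 and 2113 CPM in PyMT TANs, at 1742, 1359, 2341 and 2110.3 CPM in PyMT-Cxcr2-/- TANs, and 438, 497, 487 and 416 CPM in BM. Every TAN library was thus well above every BM library, and the types of TANs overlapped. Relative to BM, its log2 fold change was 2.08 ± 0.13 (SE) in PyMT TANs (edgeR adjusted p = 2.8e-07) and 2.17 ± 0.16 in PyMT-Cxcr2-/- TANs (edgeR adjusted p = 9.3e-08). The first of these was 2.09 without PyMT TAN replicate 3.

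Mefv (ENSMUSG00000022534; chr16:3707218-3718097, minus strand) encodes pyrin, a sensor of the action of certain bacterial toxins. It was at 424, 343, 366 and 398 CPM in PyMT TANs, at 335, 315, 389 and 333 CPM in PyMT-Cxcr2-/- TANs, and 50.6, 55.7, 41.8 and 43.8 CPM in BM. Of the 4 sensors it had the narrowest spread relative to its mean in both types of TANs, with a mean of 383 ± 35.7 CPM (SD, n = 4) in PyMT and of 343 ± 32.1 CPM in PyMT-Cxcr2-/- mice. Against BM, Mefv had a log2 fold change of 3.06 ± 0.14 in PyMT TANs (edgeR adjusted p = 4.7e-08) and 2.98 ± 0.12 in PyMT-Cxcr2-/- TANs (edgeR adjusted p = 6.8e-10), and the first was 3.07 without PyMT TAN replicate 3.

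Nlrc4 (ENSMUSG00000039193; chr17:74425438-74459142, minus strand), which acts with Naip proteins to detect flagellin and bacterial secretion needles, was the sensor with the lowest level. It was at 5.67, 9.64, 17.7 and 12.1 CPM in PyMT TANs and 11.5, 13.9, 6.59 and 7.13 CPM in PyMT-Cxcr2-/- TANs. In BM it was at 0.960, 0.712, 1.06 and 1.12 CPM, which rests on 23 to 40 counts per library. The TAN libraries all stood above BM and spread more, relative to their mean, than for any other of the 9 genes, with a mean of 11.3 ± 5.03 CPM (SD, n = 4) in PyMT and of 9.78 ± 3.52 CPM in PyMT-Cxcr2-/- mice. From BM to TANs, the log2 fold change of Nlrc4 was 3.61 ± 0.38 in PyMT TANs (edgeR adjusted p = 1.2e-05) and 3.48 ± 0.29 in PyMT-Cxcr2-/- TANs (edgeR adjusted p = 2.6e-07). Without PyMT TAN replicate 3, the library with the highest level, the first was 3.29 (edgeR adjusted p = 1.0e-05).

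Aim2 (ENSMUSG00000037860; chr1:173350879-173466040, plus strand) senses DNA in the cytosol. It was at 75.7, 62.9, 34.5 and 54.6 CPM in PyMT TANs, at 41, 31.4, 36.1 and 32.7 CPM in PyMT-Cxcr2-/- TANs, and 15.5, 18, 16.4 and 12.7 CPM in BM. Again all TAN libraries were above all BM libraries, and PyMT TAN replicate 3 lay among the PyMT-Cxcr2-/- TANs while the other PyMT TANs lay above them. Relative to BM, its log2 fold change was 1.93 ± 0.22 in PyMT TANs (edgeR adjusted p = 2.3e-05) and 1.31 ± 0.13 in PyMT-Cxcr2-/- TANs (edgeR adjusted p = 1.5e-06), and the first was 2.09 without PyMT TAN replicate 3.

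Pycard (ENSMUSG00000030793; chr7:127989708-127993867, minus strand), the adaptor that joins most sensors to caspase-1, showed the smallest rise of the 7 genes. It was at 34.9, 33.6, 28.5 and 46.8 CPM in PyMT TANs, at 29.3, 23.2, 26.6 and 30.6 CPM in PyMT-Cxcr2-/- TANs, and 17.7, 14.8, 15.8 and 15.8 CPM in BM. The TANs did not overlap with BM. Against BM, Pycard had a log2 fold change of 1.24 ± 0.17 in PyMT TANs (edgeR adjusted p = 9.8e-05) and 0.91 ± 0.12 in PyMT-Cxcr2-/- TANs (edgeR adjusted p = 1.6e-05). After an adjustment for GC content and gene length the second fell under 1.5-fold, at 0.38 (edgeR adjusted p = 0.018). That adjustment also moved the median of all genes tested from 0.086 to -0.40. Relative to the median, Pycard was at 0.83 before the adjustment and 0.78 after it. Pycard overlaps the annotated gene Gm45205 on the opposite strand. The library kit marks the strand, but the strand setting of the counting is not given in the sources used here, so the Pycard counts are uncertain.

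The caspase genes Casp1 and Casp4 are neighbours on chromosome 9, both on the plus strand, and they moved in opposite directions. Casp1 (ENSMUSG00000025888; chr9:5298517-5307265) ends 1562 bases before the start of Casp4 (ENSMUSG00000033538; chr9:5308828-5336783). Casp1, the protease of the inflammasome itself, was at 31.4, 28.9, 31.8 and 26.9 CPM in PyMT TANs, at 32.3, 31.9, 29.7 and 36.2 CPM in PyMT-Cxcr2-/- TANs, and 52.3, 51.7, 46.8 and 47.8 CPM in BM. Every BM library was above every TAN library. From BM to TANs, the log2 fold change of Casp1 was -0.67 ± 0.12 in PyMT TANs (edgeR adjusted p = 0.00054) and -0.47 ± 0.10 in PyMT-Cxcr2-/- TANs (edgeR adjusted p = 0.00062). The second is under 1.5-fold and was not called, although the groups did not overlap. In PyMT TANs Casp1 was not called when libraries were scaled by their totals alone (-0.23, edgeR adjusted p = 0.10) or adjusted for GC content and gene length (-0.49, edgeR adjusted p = 0.10).

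Casp4, the caspase that binds lipopolysaccharide, was at 174, 112, 93.3 and 164 CPM in PyMT TANs, at 132, 126, 152 and 179 CPM in PyMT-Cxcr2-/- TANs, and 30.5, 33.6, 30.4 and 37.0 CPM in BM. The lowest TAN library was above the highest BM library. Relative to BM, its log2 fold change was 2.11 ± 0.20 in PyMT TANs (edgeR adjusted p = 4.9e-06) and 2.30 ± 0.12 in PyMT-Cxcr2-/- TANs (edgeR adjusted p = 6.2e-09), and the first was 2.24 without PyMT TAN replicate 3. Per length (RPKM, the level in CPM divided by the summed length of the annotated exons in kilobases), the ratio of Casp4 to Casp1 within a library was between 1.18 and 2.46 in PyMT TANs, between 1.59 and 2.07 in PyMT-Cxcr2-/- TANs, and between 0.236 and 0.313 in BM. Casp4 was thus the more abundant of the pair in all 8 TAN libraries and the less abundant in all 4 BM libraries. With the longest transcript of each gene in place of the exon union, the ratio was between 2.31 and 4.81 in the TANs and between 0.460 and 0.61 in BM. This ratio was chosen after the values were seen and is given as a description, with no test.

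**Figure D2:**
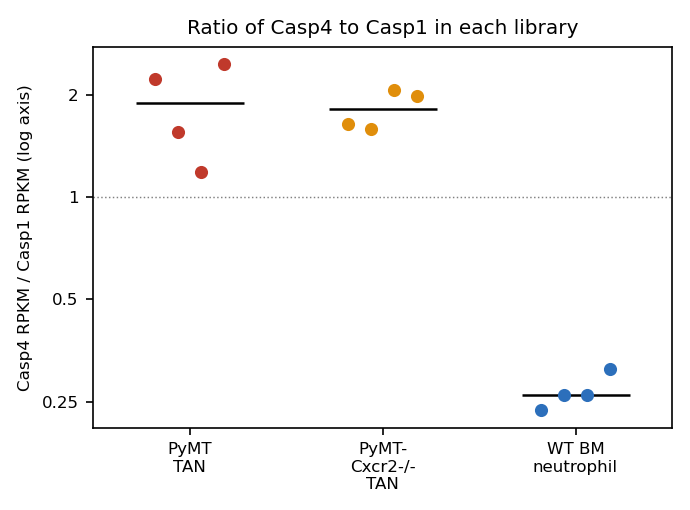
Ratio of the Casp4 to the Casp1 level (RPKM over the exon union, log axis) in each library, with 1 point per library and a bar at the median of each group. The 8 TAN libraries lie between 1.18 and 2.46, above the dotted line at a ratio of 1, and the BM libraries lie between 0.236 and 0.313.

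The sequence just upstream of the start site is shown for Casp1 and Casp4, because these neighbours moved apart, and for Nlrp3 and Mefv, the sensors with the highest levels. The sequences are from RefSeq (GRCm38.p6), which gave a start-site sequence for 8 of the 9 genes. They run 5′ to 3′ on the strand of the gene, end before an annotated exon and hold at most 250 bases. Capitals mark matches, on either strand, to the letters of 4 motifs. These are the TATA box (TATAAA), the site of the factor PU.1 of myeloid cells (GAGGAA), the interferon-gamma activated site GAS (TTCNNNGAA), and the site of the AP-1 factors (TGA followed by any base and TCA). A match to these letters is a description and not a binding site.
Casp1 upstream (chr9:5298267-5298516, plus strand): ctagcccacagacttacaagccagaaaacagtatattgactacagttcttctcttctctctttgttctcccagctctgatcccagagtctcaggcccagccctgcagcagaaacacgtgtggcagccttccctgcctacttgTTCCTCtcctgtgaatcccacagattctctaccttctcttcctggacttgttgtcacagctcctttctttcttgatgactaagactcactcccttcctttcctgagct
Casp4 upstream (chr9:5308599-5308827, plus strand): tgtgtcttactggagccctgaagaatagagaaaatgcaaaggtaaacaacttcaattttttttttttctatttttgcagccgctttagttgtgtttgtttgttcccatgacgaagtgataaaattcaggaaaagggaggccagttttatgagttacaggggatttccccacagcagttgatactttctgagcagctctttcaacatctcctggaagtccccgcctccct
Nlrp3 upstream (chr11:59541319-59541567, plus strand): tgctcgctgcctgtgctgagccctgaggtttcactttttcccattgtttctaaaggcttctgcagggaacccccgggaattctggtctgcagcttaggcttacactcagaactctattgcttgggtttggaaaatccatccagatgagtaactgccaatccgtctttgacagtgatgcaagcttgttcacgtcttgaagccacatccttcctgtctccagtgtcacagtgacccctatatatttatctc
Nlrp3 upstream, start site within the gene (chr11:59542436-59542685, plus strand): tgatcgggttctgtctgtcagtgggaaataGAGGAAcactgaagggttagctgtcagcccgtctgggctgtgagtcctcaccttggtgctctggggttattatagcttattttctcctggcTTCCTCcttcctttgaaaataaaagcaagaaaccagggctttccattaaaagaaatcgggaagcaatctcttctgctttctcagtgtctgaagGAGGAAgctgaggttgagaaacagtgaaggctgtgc
Mefv upstream (chr16:3718125-3718374, minus strand): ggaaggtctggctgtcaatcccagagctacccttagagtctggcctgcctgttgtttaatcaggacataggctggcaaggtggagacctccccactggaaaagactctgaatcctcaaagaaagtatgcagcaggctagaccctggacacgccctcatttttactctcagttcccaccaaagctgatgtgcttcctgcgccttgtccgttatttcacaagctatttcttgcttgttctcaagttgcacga
Casp1 held a match to the PU.1 letters on the opposite strand (TTCCTC, 103 bases before the start site), as did 23.3% of the 32851 mouse promoters in the RefSeq table, on either strand, in their 250 bases. Nlrp3 has a pair of RefSeq start sites, and both windows are shown. The upstream one held none of the 4 motifs, while the window of the start site within the gene held 3 matches to the PU.1 letters, 215, 124 and 31 bases before that site. Casp4 also has a pair of RefSeq start sites, and the window of the second (chr9:5308610-5308827) lies within the one shown. The windows shown for Casp4 and Mefv held none of the 4 motifs. Of those not shown, Aim2 held 2 matches to the PU.1 letters, Il18 held 1 to the TATA letters on the opposite strand, and Nlrc4 held none. The Pycard window lay wholly in annotated exons, so no bases of it were left to search. The other letters were found in 6.75% (AP-1), 7.02% (GAS) and 12.4% (TATA) of all promoters.

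Gsdmd (ENSMUSG00000022575; chr15:75862327-75867408, plus strand), whose cleaved product forms the membrane pore, was lower in TANs than in BM. It was at 73.9, 56.9, 74.0 and 51.8 CPM in PyMT TANs, at 87.4, 79.7, 90.9 and 99.6 CPM in PyMT-Cxcr2-/- TANs, and 179, 162, 179 and 163 CPM in BM. The 3 groups did not overlap, with PyMT TANs lowest and BM highest. Against BM, Gsdmd had a log2 fold change of -1.35 ± 0.14 in PyMT TANs (edgeR adjusted p = 1.1e-05) and -0.80 ± 0.09 in PyMT-Cxcr2-/- TANs (edgeR adjusted p = 6.0e-06), and the first was -1.44 without PyMT TAN replicate 3.

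Il18 (ENSMUSG00000039217; chr9:50554827-50581840, plus strand), a cytokine that caspase-1 activates, was at a low level in every library. It was at 4.47, 4.38, 5.55 and 6.32 CPM in PyMT TANs, at 4.16, 4.05, 5.0 and 3.35 CPM in PyMT-Cxcr2-/- TANs, and 1.2, 2.26, 1.86 and 1.49 CPM in BM, where this is 40 to 73 counts. All TAN libraries were above all BM libraries. From BM to TANs, the log2 fold change of Il18 was 1.67 ± 0.33 in PyMT TANs (edgeR adjusted p = 0.0010) and 1.42 ± 0.26 in PyMT-Cxcr2-/- TANs (edgeR adjusted p = 0.00024).

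Between PyMT-Cxcr2-/- and PyMT TANs, none of the 9 genes was called, and the estimates ranged from -0.69 for Aim2 to 0.47 for Gsdmd on the log2 scale. DESeq2 called 0 of the 9 as well. At an unadjusted p under 0.05, 3 of the 9 differed (Aim2, Pycard and Gsdmd), as did 15.2% of all genes tested. For Nlrp3 the log2 fold change was 0.02 with a 95% interval from -0.36 to 0.41 (edgeR adjusted p = 0.98), and for Mefv it was -0.16 with an interval from -0.45 to 0.12 (edgeR adjusted p = 0.65). Both intervals lie within a 1.5-fold change. For Casp1 the interval was -0.18 to 0.43 and for Casp4 -0.34 to 0.56, both also within 1.5-fold, while for Nlrc4 it was -0.98 to 0.56 and for Il18 -0.91 to 0.26. The last 2 intervals reach past a 1.5-fold lower level, so a change of that size in Nlrc4 or Il18 could not be shown or bounded with these libraries.

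Gsdmd was the only one of the 9 genes whose TAN groups were fully separate, higher in PyMT-Cxcr2-/- TANs, which also holds for 6.34% of all genes tested. Its mean was 64.2 ± 11.5 CPM (SD, n = 4) with Cxcr2 and 89.4 ± 8.24 CPM (SD, n = 4) without, and the 95% interval of the log2 difference of 0.47 ran from 0.14 to 0.81 (edgeR adjusted p = 0.15). Gsdmd was thus not called. Of the 6 markers of immature neutrophils, Ltf, Camp and Ngp were called higher in PyMT-Cxcr2-/- TANs, where 5 of the 6 were tested. These 3 genes made up nearly all of the summed level of the list, which was 408 to 689.5 CPM in PyMT TANs, 1875 to 6250.4 CPM in PyMT-Cxcr2-/- TANs and 28592 to 45413 CPM in BM. The other markers did not follow them, with Mpo at a mean of 2.03 ± 2.33 CPM in PyMT TANs and of 0.763 ± 0.503 CPM without Cxcr2, Prtn3 at 1.60 ± 1.28 and 1.18 ± 0.412 CPM, and Elane at 0.296 ± 0.486 and 0.282 ± 0.281 CPM (SD, n = 4 each). Of the 8 general neutrophil markers, 5 were called higher and 1 lower in PyMT-Cxcr2-/- TANs, beside 1.38% and 0.596% of all genes tested. The 1 called lower was Cxcr2, the gene inactivated in these mice. Among the 8, Ly6g was at 20.3 to 48.0 CPM in PyMT TANs and 106 to 180.3 CPM in PyMT-Cxcr2-/- TANs. The part of either marker list in the Gsdmd values was not tested. Aim2 lay in the other direction, at 56.9 ± 17.3 CPM with Cxcr2 and 35.3 ± 4.29 CPM without (SD, n = 4 each), and its log2 fold change of -0.69 had an interval from -1.16 to -0.23 (edgeR adjusted p = 0.13). It was called without PyMT TAN replicate 3 (-0.87, edgeR adjusted p = 0.036) and with libraries scaled by their totals alone (-0.87, edgeR adjusted p = 0.049), a scaling that moved the median of all genes to -0.26 from -0.07. Of 5 dendritic cell markers, 0 were called between the TANs. Itgax, which makes up nearly all of their summed level, was at 404 ± 55.2 CPM with Cxcr2 and 276 ± 7.49 CPM without, and Zbtb46 had the same direction of means, while Flt3, Ccr7 and Xcr1 had the opposite one. Their part in the Aim2 values was not tested. For Pycard the log2 fold change was -0.40 with an interval from -0.78 to -0.01 (edgeR adjusted p = 0.31), and the groups overlapped.

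**Figure D3:**
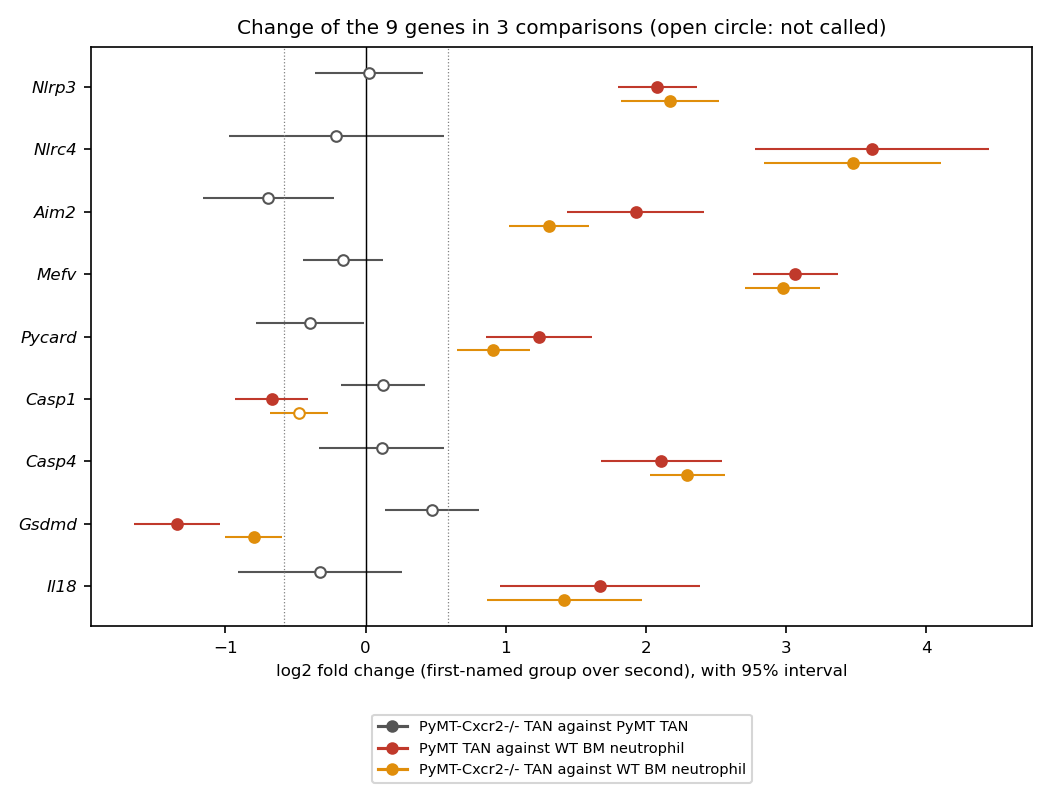
Log2 fold change of the 9 genes with its 95% interval in 3 comparisons, where filled circles are called and open circles are not, and the dotted lines mark a 1.5-fold change. Against BM, 7 genes lie above 0.9 in both types of TANs, from 0.91 (Pycard) to 3.61 (Nlrc4), and Gsdmd and Casp1 lie below 0, while between the TANs the estimates lie from -0.69 to 0.47.

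Levels of different genes were compared only per length. In RPKM over the exon union, Nlrp3 had the highest level in every group, at 457 ± 45.4 in PyMT TANs, at 465 ± 106 in PyMT-Cxcr2-/- TANs and 113 ± 9.52 in BM (SD, n = 4 each), and Nlrc4 had the lowest, at 2.34 ± 1.05, 2.04 ± 0.733 and 0.2 ± 0.038. In both types of TANs Mefv came next (118 ± 11 and 106 ± 9.86), followed by Casp4, Gsdmd, Casp1, Aim2, Pycard, Il18 and Nlrc4. Casp4 and Gsdmd did not differ beyond their spread in the TANs, at 36.6 ± 10.6 against 27.0 ± 4.85 RPKM in PyMT TANs and 39.7 ± 6.44 against 37.6 ± 3.47 RPKM in PyMT-Cxcr2-/- TANs. In BM the order after Nlrp3 was Gsdmd (71.8 ± 3.91), Casp1 (33.2 ± 1.83), Mefv (14.8 ± 1.95), Casp4 (8.86 ± 0.839), Aim2 (4.47 ± 0.627), Pycard (4.21 ± 0.318), Il18 (1.65 ± 0.447) and Nlrc4. Aim2 and Pycard did not differ beyond their spread in BM over the exon union. The executioner Gsdmd and the protease Casp1 thus followed Nlrp3 directly in BM, while in the TANs Mefv came before them. With the coding length in place of the exon union, Nlrp3 stayed first and Nlrc4 last in each group, and the order of the genes between them changed.

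Across the 8 TAN libraries, Nlrc4 was high where macrophage markers were high. The macrophage marker C1qa, a complement gene, was at 154, 355, 409 and 290.1 CPM in PyMT TANs, at 322, 337, 196 and 149 CPM in PyMT-Cxcr2-/- TANs and at most 2.04 CPM in BM. Nlrc4 had its 3 lowest levels among the TANs in the 3 libraries in which C1qa was lowest, namely PyMT TAN replicate 1 and PyMT-Cxcr2-/- TAN replicates 3 and 4. Over the 8 libraries the log2 CPM of Nlrc4 had a Pearson r of 0.919 with the mean log2 CPM of the 10 macrophage markers (exact permutation p = 0.00032, adjusted over 18 relations 0.0058) and a Spearman rho of 0.976 (exact permutation p = 0.00040, adjusted 0.0071). The r was 0.988 without the 2 libraries farthest from the median of the markers. With 4 libraries in each genotype, r is not given within them. The part of macrophage RNA in the Nlrc4 level was not tested.

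Casp4 lay the other way, with an r of -0.765 (exact permutation p = 0.026, adjusted 0.23) and a rho of -0.738 (exact permutation p = 0.046, adjusted 0.28), which did not pass the adjustment. Of the 18 relations, between the 9 genes and either macrophage or epithelial markers, that of Nlrc4 with macrophage markers was the only one to pass. For Nlrp3 the r with macrophage markers was -0.422 (exact permutation p = 0.30, adjusted 0.66) and for Il18 it was 0.443 (exact permutation p = 0.27, adjusted 0.66). Nlrc4 had an r of 0.746 with the epithelial markers (exact permutation p = 0.038, adjusted 0.23). Since all macrophage markers were higher in TANs than in BM, the part of macrophage RNA in the differences from BM was not tested for any of the 9 genes or of the list genes given next. The summed level of the epithelial markers was higher in TANs than in BM as well, and the part of epithelial RNA in these differences was not tested either. All 6 markers of immature neutrophils were called lower in both types of TANs than in BM, beside 23.2% and 25.1% of all genes tested. Elane and Prtn3 among them are also list genes. The part of cell maturity in the differences from BM was not tested.

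**Figure D4:**
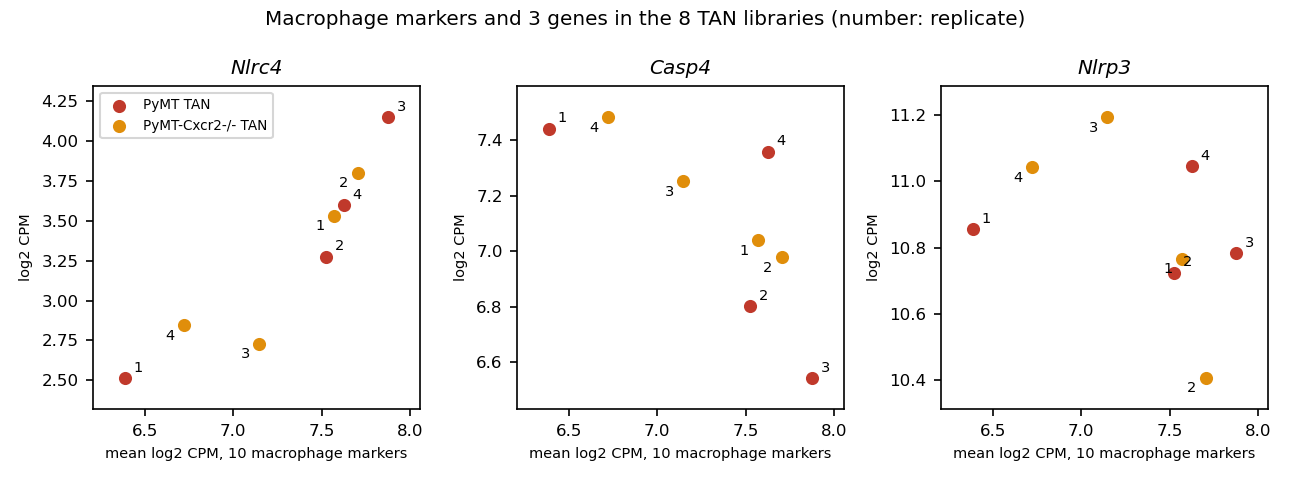
Log2 CPM of Nlrc4, Casp4 and Nlrp3 (vertical axes) against the mean log2 CPM of 10 macrophage markers (horizontal axes) in the 8 TAN libraries, with 1 point per library, coloured by group and numbered by replicate. Nlrc4 rises with the markers (r = 0.919), Casp4 lies lower where they are high (r = -0.765, not past the adjustment), and Nlrp3 shows no clear relation (r = -0.422).

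Over all 12 libraries, the genes whose log2 CPM pattern was most like that of each of the 9 genes were found among 11079 genes with a mean log2 CPM of at least 1. The difference between TANs and BM makes up most of these patterns, so many genes share them, and the r values are a description. Nlrp3 was most like Zfp263 (r = 0.996) and Plek (0.994), Mefv most like Slc41a1 (0.997) and Gpr35 (0.996), and Nlrc4 most like Cmtm4 (0.996) and Zdhhc1 (0.996). Aim2 was most like Gna13 (r = 0.986) and Usp6nl (0.980), Casp4 most like Tpd52 (0.991) and Etf1 (0.990), and Il18 most like Stum (0.984) and Prr15l (0.979). Among the genes lower in TANs, Casp1 was most like Zfp141 (r = 0.991) and Fam241a (0.988), and Gsdmd most like Gm14548 (0.994) and Osbpl2 (0.993). Pycard had the fewest close matches, with Gm26535 (r = 0.970) and Rbpj (0.961) the nearest. At an r of 0.95 or more, Pycard was matched by 9 genes, Aim2 by 48, Il18 by 88 and each of the others by between 325 and 832.

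Around these 9 genes, 56 further genes of the pathway were taken from 7 lists. Against WT BM neutrophils, 22 were called higher and 16 lower in PyMT TANs of 47 tested, and 20 higher and 15 lower in PyMT-Cxcr2-/- TANs of 48 tested, beside the 30.1% higher and 23.2% lower, and the 34.4% and 25.1%, of all genes tested in these comparisons. Their median log2 fold change was 0.55 in PyMT TANs and 0.24 in PyMT-Cxcr2-/- TANs. Between the TANs 46 were tested, of which 2 were called higher and 3 lower without Cxcr2, beside 1.38% and 0.596% of all genes tested, with a median of -0.09. Of the list genes named here, Il1a, Il1b, Il18bp, Txnip, Chmp3, Casp9 and Prtn3 have an annotated gene opposite them on the other strand, and the same uncertainty applies to them as to Pycard.

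Among 11 other sensors and partners, Nlrp6, Zbp1 and Ifi204 were called higher and Naip2 and Pstpip1 lower in both types of TANs than in BM. The largest change was that of the DNA sensor Ifi204, which was between 4.01 and 13.5 CPM in the TANs and at most 0.124 CPM in BM. Pstpip1, which binds pyrin, was at 276, 200.3, 156 and 128 CPM in PyMT TANs, at 206, 177, 248 and 245 CPM in PyMT-Cxcr2-/- TANs, and 543, 503, 469.6 and 507 CPM in BM. Against BM, its log2 fold change was -1.35 ± 0.20 in PyMT TANs (edgeR adjusted p = 0.00016) and -1.07 ± 0.12 in PyMT-Cxcr2-/- TANs (edgeR adjusted p = 3.2e-06). The Naip genes, whose proteins act with Nlrc4, are near-identical copies whose reads could be split by the counting, so their values are uncertain. Nlrp1a had 0 counts in all 12 libraries, and Nlrp12 had at most 12 counts in any library.

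Of the 11 genes of priming and licensing, 8 were called higher and 1 lower in PyMT TANs than in BM, and 6 higher and 1 lower in PyMT-Cxcr2-/- TANs. P2rx7, the ATP-gated channel that triggers Nlrp3, was at 14.9, 31.0, 32.0 and 28.8 CPM in PyMT TANs and 30.7, 30.7, 23 and 14.9 CPM in PyMT-Cxcr2-/- TANs, and between 0.186 and 0.720 CPM in BM. Relative to BM, P2rx7 had a log2 fold change of 5.87 ± 0.41 in PyMT TANs (edgeR adjusted p = 6.4e-07) and 5.83 ± 0.35 in PyMT-Cxcr2-/- TANs (edgeR adjusted p = 2.0e-08). Txnip, a thioredoxin inhibitor, was the gene called lower, with a log2 fold change of -0.99 ± 0.19 (edgeR adjusted p = 0.0010) and -1.34 ± 0.15 (edgeR adjusted p = 3.6e-06). The first was -0.55 with libraries scaled by their totals alone, under 1.5-fold and not called. The interferon-inducible GTPase Gbp5 was called lower in PyMT-Cxcr2-/- TANs than in PyMT TANs, at 5.69, 8.16, 9.64 and 8.96 CPM against 16.2, 18.6, 21.6 and 19.1 CPM. Its log2 fold change was -1.22 ± 0.21 (edgeR adjusted p = 0.017), and in BM it was at most 0.990 CPM. Gbp5 was not called without PyMT TAN replicate 2 or PyMT-Cxcr2-/- TAN replicate 4, nor with the replicate number as a block.

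In the interleukin 1 and 18 axis, Il1a, Il1b, Il1rn and Il1r2 were called higher in both types of TANs, and Il18bp and Il18r1 lower. Il1a, a cytokine that acts without cleavage by caspase-1, showed the largest change. It was at 81.0, 94.2, 139 and 108 CPM in PyMT TANs, at 56.2, 33.9, 42.8 and 28.4 CPM in PyMT-Cxcr2-/- TANs, and at most 0.803 CPM in BM. The TAN groups did not overlap, and Il1a was called lower in PyMT-Cxcr2-/- TANs, with a log2 fold change of -1.39 ± 0.23 (edgeR adjusted p = 0.015). Without PyMT-Cxcr2-/- TAN replicate 3 or PyMT TAN replicate 2 it was not called. Il1b, the main substrate of caspase-1, ranged from 7534 to 9724 CPM in PyMT TANs, from 6657 to 9355 CPM in PyMT-Cxcr2-/- TANs and from 713 to 862 CPM in BM. Its log2 fold change between the TANs was -0.08 ± 0.15 (edgeR adjusted p = 0.89). Il18bp, the binding protein that blocks interleukin-18, and Il18r1, its receptor chain, lay opposite to Il18: the log2 fold change of Il18bp from BM was -1.85 ± 0.11 in PyMT TANs (edgeR adjusted p = 2.7e-07) and -1.55 ± 0.11 in PyMT-Cxcr2-/- TANs (edgeR adjusted p = 4.7e-08), and that of Il18r1 was -1.96 ± 0.20 (edgeR adjusted p = 9.4e-06) and -1.28 ± 0.12 (edgeR adjusted p = 7.7e-07).

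Of the other gasdermins, Gsdme was the one well detected. It was at 75.4, 65.6, 50.2 and 52.3 CPM in PyMT TANs, at 82.5, 70.4, 97.8 and 121 CPM in PyMT-Cxcr2-/- TANs, and 317, 291, 356 and 336 CPM in BM, so that, as for Gsdmd, all TAN libraries lay below BM. Against BM, Gsdme had a log2 fold change of -2.35 ± 0.15 in PyMT TANs (edgeR adjusted p = 3.3e-07) and -1.67 ± 0.15 in PyMT-Cxcr2-/- TANs (edgeR adjusted p = 3.9e-07). Between the TANs, Gsdme was not called in the main fit, and the groups overlapped. DESeq2 and the fit of all 12 libraries called it higher in PyMT-Cxcr2-/- TANs. With each library left out its log2 fold change was 0.47 to 0.77, and it was never called. Gsdma, Gsdma2, Gsdma3, Gsdmc, Gsdmc2 and Gsdmc3 had at most 6 counts in any library and were not tested. Gsdmc4 was called higher in the TANs at a low level, between 2.0 and 3.94 CPM in 7 TAN libraries, 0 in PyMT TAN replicate 3 and at most 0.573 CPM in BM. In PyMT TANs its log2 fold change of 2.77 (edgeR adjusted p = 0.037) was called in only 1 of the 8 fits with a library left out, that without PyMT TAN replicate 3, and not with the replicate number as a block (2.41, edgeR adjusted p = 0.19), and the groups overlapped. Ninj1, which ruptures the membrane after the pores form, was called higher, with a log2 fold change of 1.10 ± 0.13 in PyMT TANs (edgeR adjusted p = 2.8e-05) and 0.96 ± 0.12 in PyMT-Cxcr2-/- TANs (edgeR adjusted p = 7.1e-06), and Chmp3, a subunit of the membrane repair complex, was called lower, with -1.31 ± 0.14 (edgeR adjusted p = 1.2e-05) and -1.13 ± 0.09 (edgeR adjusted p = 2.1e-07).

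Among the other caspases, Casp6 and Casp12 were called higher and Casp9 lower in both types of TANs than in BM, although Casp9 was not called in PyMT-Cxcr2-/- TANs without PyMT-Cxcr2-/- TAN replicate 2, without WT BM replicate 1 or with library totals alone. Casp12, an inflammatory caspase gene of the same family, was between 1.09 and 4.16 CPM in the TANs and at most 0.248 CPM in BM. Casp8, which can cut gasdermin D, was called lower in PyMT-Cxcr2-/- TANs than in PyMT TANs, at 29.3, 28.3, 22.6 and 24.1 CPM against 38.3, 42.9, 46.8 and 39.5 CPM. Casp8 thus had a log2 fold change of -0.69 ± 0.15 (edgeR adjusted p = 0.039), and it was not called when any of the 8 libraries was left out.

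Of the 4 inhibitors, Serpinb1a, which blocks neutrophil serine proteases and inflammatory caspases, was lower in TANs than in BM and higher in PyMT-Cxcr2-/- TANs than in PyMT TANs. It was at 15.1, 17.2, 17.1 and 12.8 CPM in PyMT TANs, at 35.5, 37.3, 39.2 and 95.3 CPM in PyMT-Cxcr2-/- TANs, and 454, 426, 359.7 and 414 CPM in BM. Between the TANs its log2 fold change was 1.73 ± 0.31 (edgeR adjusted p = 0.019), and Serpinb1a was not called without PyMT TAN replicate 2, 3 or 4. Ifi208 and Trim30a were called higher in both types of TANs than in BM. Ifi213 was called higher in PyMT-Cxcr2-/- TANs and was not tested in PyMT TANs. The neutrophil proteases Elane, Ctsg and Prtn3, which can cut gasdermin D or interleukin-1β, and Padi4, which opens chromatin for the release of DNA, were all called lower in both types of TANs than in BM. Ctsg was between 3.31 and 5.16 CPM in BM and at most 0.0843 CPM in the TANs. Padi4 was at 30.4, 25.6, 15.9 and 7.70 CPM in PyMT TANs, at 72.6, 87.7, 106 and 179.7 CPM in PyMT-Cxcr2-/- TANs, and 821, 706, 593 and 653 CPM in BM. Between the TANs the log2 fold change of Padi4 was 2.48 ± 0.42 (edgeR adjusted p = 0.019), and it was not called when PyMT TAN replicate 2 or 3 or PyMT-Cxcr2-/- TAN replicate 3 or 4 was left out.

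**Figure D5:**
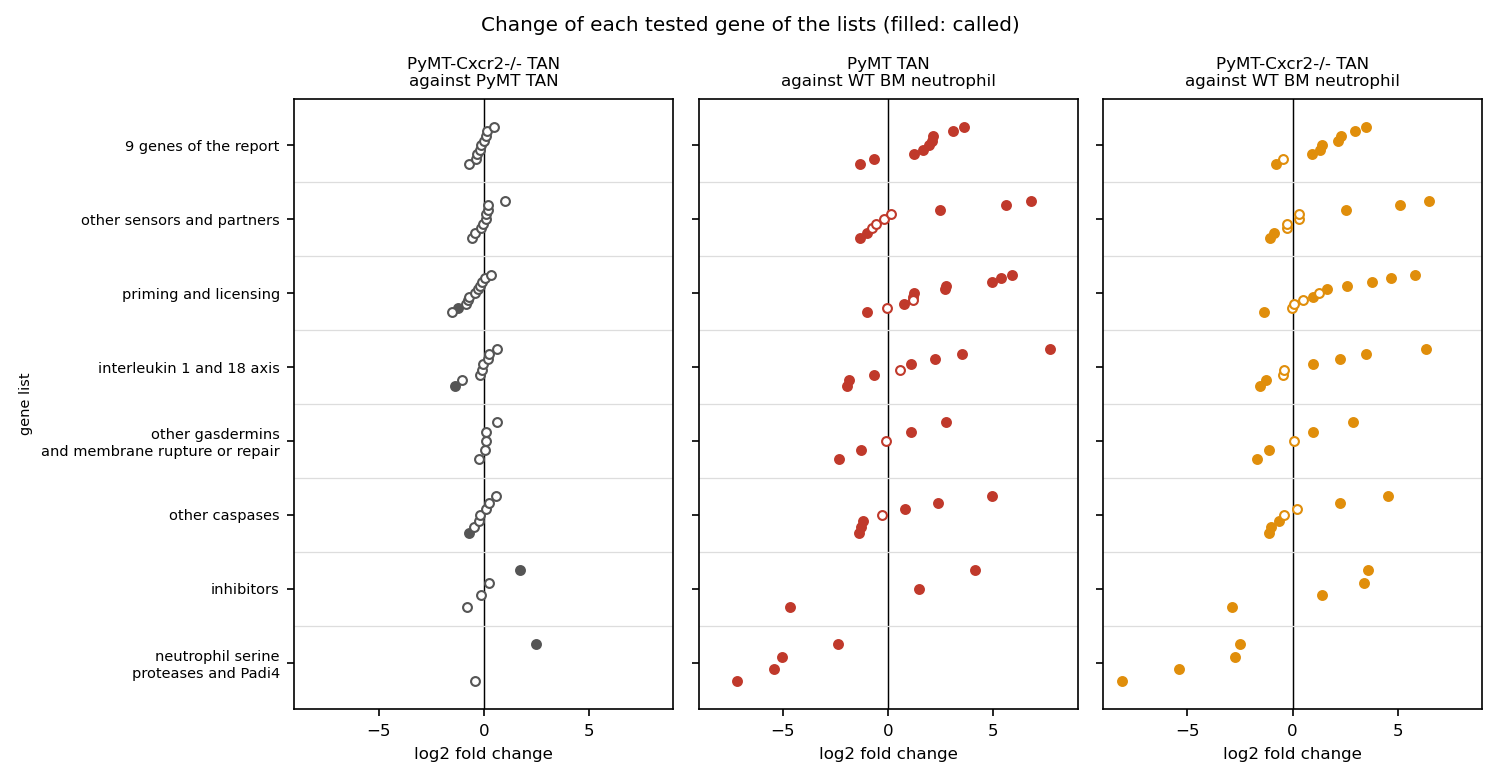
Log2 fold change of each tested gene of the 9 described here and of the 7 further lists (rows) in the 3 comparisons (panels), with 1 point per gene, filled where the gene was called. Between the TANs 5 list genes are filled and the 9 genes are all open, while against BM each list holds genes called lower, and the serine proteases and Padi4 all lie below 0.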

How the data were processed

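Neutrophils from PyMT tumors, PyMT-Cxcr2-/- tumors and WT BM were profiled by RNA-seq in 12 libraries, with 4 per group. From rRNA-depleted, directional, paired-end libraries, the authors obtained trimmed reads, mapped these with STAR to mm10 and deposited the HTSeq count of each gene, unnormalized, for each library. The annotation release and the strand setting of the counting are not given in the sources used here. Of 55335 Ensembl identifiers in a table, 55154 were found in GENCODE M21 (GRCm38) for symbols, positions, exon lengths and overlaps. The classes that name no gene held 46.3% to 60.5% of each library and were left out.

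Each comparison was fitted on its 2 groups alone with edgeR 4.0.16 in R 4.3.3 (TMM, filterByExpr at its defaults, robust quasi-likelihood test, Benjamini-Hochberg adjustment over all genes tested). Calls needed an adjusted p under 0.05 together with at least a 1.5-fold difference, the thresholds of the study's methods, while the study's own test, DESeq2, was an alternative (DESeq2 1.42.0). SEs were obtained as the absolute log2 fold change over the root of the F statistic. CPM used TMM factors over the 12 libraries, and log2 CPM a prior count of 2. Correlations with marker lists used two-sided exact permutation tests (SciPy 1.17.1). The procedures were tested on simulated data. All 18 within-group pairs of libraries differed beyond sampling noise (chi-square per degree of freedom 22.6 to 134), so each library was counted once.

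The 9 genes, the 7 lists around them and the marker lists were chosen with earlier results of these data known. The 9 genes are named throughout, and of each list the genes with the largest change in each direction and those called between the TANs, with others named where a count of 5 or fewer or a very low level called for it, chosen after their values were seen. Some list genes are counted but not reported here by name. Under other symbols, 3 list genes are named here as follows: Irgb10 is Gm12250, Pydc3 is Ifi208 and Pydc4 is Ifi213. The alternatives were DESeq2 size factors, library totals alone, all genes with 1 count or more, DESeq2, 1 fit of all 12 libraries, a fit without robust estimation, a replicate block, a correction for GC and length with and without this block, other gene lengths, marker sums without TMM factors, and each library left out in turn.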

Additional observations from a re-analysis of the deposited data

Results flagged for a closer look

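Of 117 sets of 4 libraries (the 9 genes and 30 list genes, in each group), 9 held a library far from the other 3, where chance gives about 1 in 20. None of these was one of the 9 genes. Serpinb1a was at 95.3 CPM in PyMT-Cxcr2-/- TAN replicate 4, against 35.5 to 39.2 CPM in the others. The receptor chain gene Il18r1 was at 24.6 CPM in the same library, against 17.2 to 18.4 CPM. In WT BM replicate 1, Ninj1 was at 141.7 CPM, against 114.7 to 118.0 CPM, and Casp9 at 69.5 CPM, against 52.6 to 54.7 CPM. In PyMT-Cxcr2-/- TAN replicate 1, Casp6 was at 15.5 CPM, against 9.52 to 9.72 CPM. Elane was at 1.01 CPM in PyMT TAN replicate 2, against at most 0.169 CPM. At levels near the floor of 3 counts, Ifi213 was at 0 CPM in WT BM replicate 4, against 0.0573 to 0.0619 CPM in the others. Ctsg was at 0.0843 CPM in PyMT TAN replicate 1 and at 0.0513 CPM in PyMT-Cxcr2-/- TAN replicate 2, and at 0 in the others of each group.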

How the results depend on the processing

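Against BM, 7 of the 9 genes were called higher in both types of TANs under each alternative but for Pycard in PyMT-Cxcr2-/- TANs, which fell under 1.5-fold after the GC and length correction (0.38, and 0.37 with the replicate block). Gsdmd was called lower in both under each alternative. In PyMT TANs only 1 gene, Gsdmd, was called lower with library totals alone, after the GC and length correction, and after that adjustment with the replicate block (Casp1 then -0.23, -0.49 and -0.55). With all 12 libraries in one fit, Casp1 was called in PyMT-Cxcr2-/- TANs too (-0.61), so that 2 genes were lower. Library totals alone moved the median log2 fold change of all genes from 0.087 to 0.53 in PyMT TANs and from 0.086 to 0.27 in PyMT-Cxcr2-/- TANs, against BM. Relative to that median, Casp1 in PyMT TANs was at -0.76 under both scalings. The GC and length correction moved the median to -0.15 in PyMT TANs and -0.40 in PyMT-Cxcr2-/- TANs, and to -0.28 and -0.41 with the block. Relative to these medians, Casp1 in PyMT TANs was only at -0.34, and at -0.27 with the block. In PyMT-Cxcr2-/- TANs it was at -0.56 relative to the median before the correction, -0.17 after it and -0.15 with the block.

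Between the TANs, 1 of the 9 genes (Aim2) was called lower with library totals alone, and 0 to 1 with each library left out in turn. Of the list genes, 1 was higher with all genes of 1 count or more, 0 were higher with the replicate block, 0 after the GC and length correction, 0 after that adjustment with the block, and 0 to 2 with each library left out. For lower genes these counts were 6 with DESeq2, 5 with all 12 libraries in one fit, 0 with the block, 1 after the adjustment, 0 after it with the block, and 0 to 2 with each library left out. Left out in turn, PyMT TAN replicate 2 took away all 5 calls. Over all genes tested, 10 were then called higher and 13 lower, against 255 and 110 in the main fit. These counts over all genes were 691 and 348 with DESeq2, and 579 and 307 with all 12 libraries in one fit. After the GC and length correction they were 39 and 37. The cause was not tested. The replicate numbers give the libraries no pairing: deviations from the group mean had a mean correlation of -0.042 (-0.205 to 0.084) for the same number and 0.014 for other numbers, and with the replicate block 4 genes of all were higher and 9 lower between the TANs, against 255 and 110 without it.

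Between the TANs the sign of small changes turned. Nlrp3 became -0.18 with library totals alone, -0.0043 with the block, -0.016 after the adjustment, -0.062 with both, and ranged from -0.082 to 0.16 with each library left out, below 0 without PyMT TAN replicate 2 or PyMT-Cxcr2-/- TAN replicate 3 or 4. Casp1 became -0.063 with library totals alone and -0.034 after the adjustment, and Casp4 -0.085 with library totals alone. With each library left out, Casp4 ranged from -0.023 to 0.31 and Nlrc4 from -0.42 to 0.10, both turning without PyMT TAN replicate 3. Of the list genes, Gsdmc4 became -0.16 with library totals alone. With each library left out, P2rx7 ranged from -0.26 to 0.10 (turning without PyMT-Cxcr2-/- TAN replicate 4), Gsdmc4 from -0.37 to 0.36 (PyMT TAN replicate 3 or PyMT-Cxcr2-/- TAN replicate 3) and Ifi213 from -0.16 to 0.65 (PyMT TAN replicate 3 or PyMT-Cxcr2-/- TAN replicate 1). Naip2 became -0.094 and Chmp3 -0.079 with library totals alone. Zbp1 and Il1r2 became 0.022 and 0.0027 with DESeq2 size factors, 0.032 and 0.0037 with all genes of 1 count or more, and 0.025 and 0.0052 with DESeq2. With each library left out, Zbp1 ranged from -0.10 to 0.095, Il1r2 from -0.17 to 0.080, Il1b from -0.14 to 0.0091, Casp6 from -0.39 to 0.062 and Prtn3 from -0.77 to 0.085. Against BM, Naip2 in PyMT TANs was not called with library totals alone, nor were Il1rn and Ninj1 in PyMT-Cxcr2-/- TANs after the GC and length correction, with and without the block. Against BM, Casp8 in PyMT-Cxcr2-/- TANs became -0.36 after the adjustment, with and without the block. In that comparison the median of all genes moved from 0.086 to -0.40 with the adjustment, and to -0.41 with the block too. Depth limits Nlrc4 and Il18 in BM, with 23 to 73 counts, and the gasdermins near 0.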
